A study of Homo sapiens with 8 samples.

Results

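H3K36me3, the trimethyl mark on lysine 36 of histone H3, was examined at 4 genes on human chromosome 11: the imprinted neighbours H19 and IGF2, and the neighbouring noncoding RNA genes NEAT1 and MALAT1. The members were all deposited peaks that overlapped a fixed hg19 span of these genes by 1 bp or more, a rule on positions alone. There were 6 such peaks of 58863 in all: 1 of the 23488 peaks of the SETD2 knockdown and 5 of the 35375 peaks of the control. The question asked was whether abundant long noncoding RNA genes with few introns carry the mark beside IGF2.

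The libraries came from HepG2, a human hepatocellular carcinoma cell line. The tested cells stably expressed SETD2 shRNA and are called shSETD2, and the control cells expressed a non-specific shRNA and are called shCtrl. Both were made with lentivirus harvested at 48 and 72 hours, in 2 rounds of infection in the presence of 4 μg/mL polybrene. Both were selected with 1 μg/mL puromycin for at least 3 passages. H3K36me3 immunoprecipitate and input DNA of either line had 2 replicates each (8 samples), but the replicates were merged before peaks were called. Each condition therefore has 1 list, neither a replicate spread nor a test of the conditions, and every interval given here is a 95% interval for counting error only. The merged immunoprecipitates held 67053273 filtered tags in shSETD2 and 47880817 in shCtrl. How far SETD2 itself was reduced, whether each line was a clone or a mixed population, and RNA levels of the 4 genes were not analysed here, and neither were markers of HepG2 identity.

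SETD2 is the enzyme that places H3K36me3 in human cells. It travels with elongating RNA polymerase II, so the mark lies over the bodies of transcribed genes, typically toward their 3′ parts, and it is usually stronger over spliced genes. IGF2 encodes insulin-like growth factor 2, a fetal growth factor expressed from the paternal allele. H19 makes a noncoding RNA from the maternal allele, and both are active in fetal liver. NEAT1 is the scaffold RNA of paraspeckles, and MALAT1 is a nuclear RNA concentrated in nuclear speckles; both are abundant in many cells and are little spliced.

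The mark was called over 1 of the 4 loci in shSETD2 cells and over 3 of 4 in shCtrl cells. In shSETD2 cells the locus was MALAT1. In shCtrl cells they were MALAT1, NEAT1 and IGF2. H19 had no peak in either list. Of the 5 shCtrl peaks, 1 was overlapped by a shSETD2 peak, against 39.5% of all shCtrl peaks and 36.3% of those on chromosome 11.

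**Figure D1:**
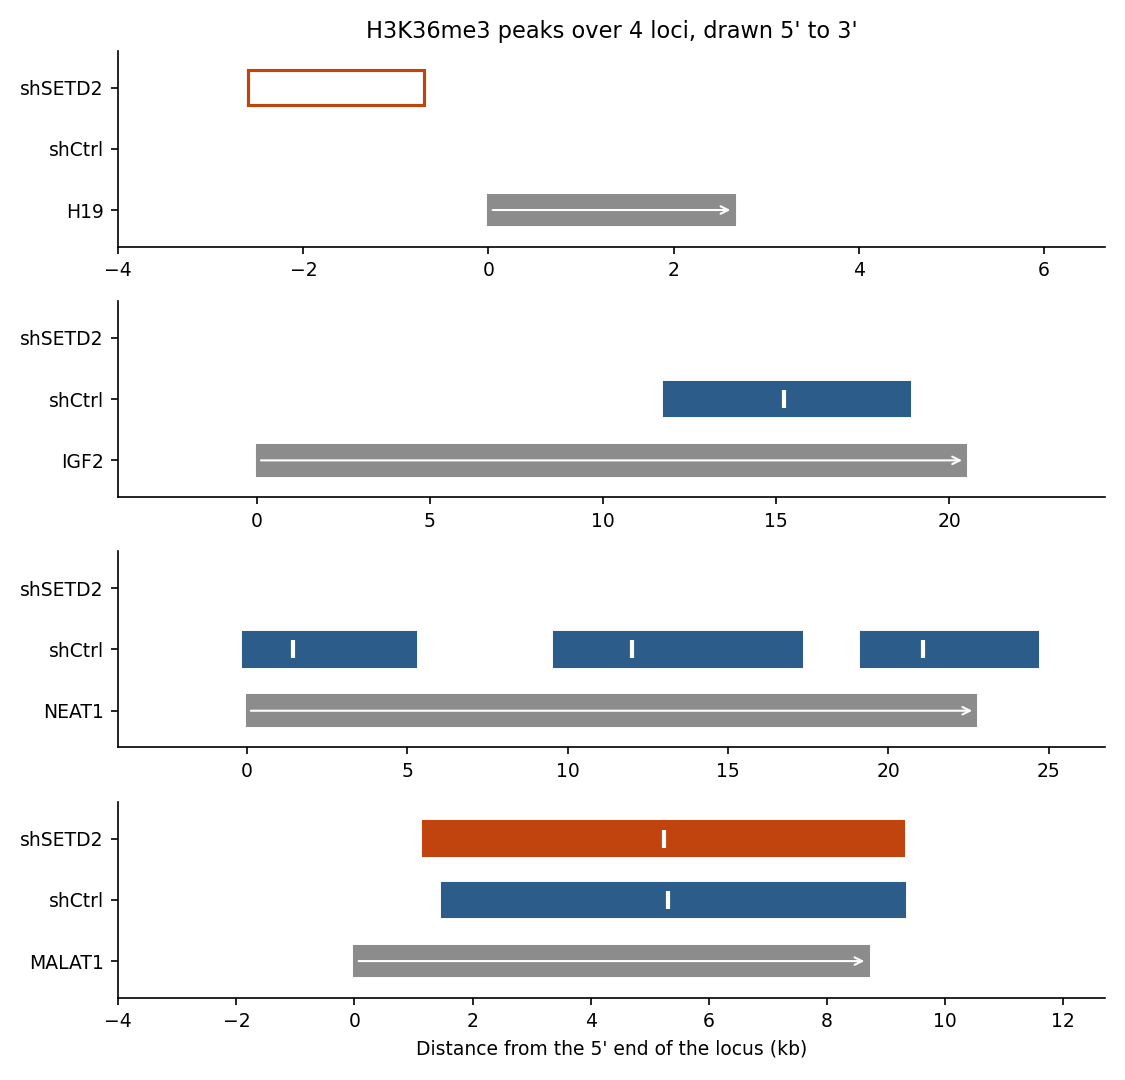
Peaks over the 4 loci, each drawn 5′ to 3′ with distance from its 5′ end in kb. Filled boxes are peaks of the shSETD2 list (upper row) and the shCtrl list (middle row), white ticks are their summits, and grey bars are the loci. Open boxes are the nearest peaks outside the locus, drawn only where they fall within the range shown. MALAT1 is the locus with a peak in both lists; IGF2 and NEAT1 have shCtrl peaks alone; at H19 the nearest peak is a shSETD2 peak 0.701 kb beyond the 5′ end.

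The sequences shown are the start regions of MALAT1, the gene with a peak in both lists. They are RefSeq sequences of the GRCh38.p14 build, while the peaks are in hg19. No coordinate was converted, and positions were compared only as distances from a gene's 5′ end. The promoter table had no entry for NEAT1 or IGF2. For MALAT1, RefSeq gives start sites 1307 bases apart. The windows of 250 bases before to 50 after them, both on the plus strand, are shown because the 5′ edges of the MALAT1 peaks lie near the second one. They are at chr11:65497488-65497787 (promoter 1) and chr11:65498795-65499094 (promoter 2). Capitals mark GGGCGG (the Sp1 box), TATAAA (the TATA box) and CCAAT (the CAAT box) on either strand.
MALAT1 promoter 1: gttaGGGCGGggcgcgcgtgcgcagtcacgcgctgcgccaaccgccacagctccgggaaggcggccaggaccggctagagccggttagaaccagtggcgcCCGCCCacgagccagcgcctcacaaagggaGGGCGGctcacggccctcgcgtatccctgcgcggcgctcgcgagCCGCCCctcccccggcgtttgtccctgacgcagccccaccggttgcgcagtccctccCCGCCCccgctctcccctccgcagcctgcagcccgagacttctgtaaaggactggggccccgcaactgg
MALAT1 promoter 2: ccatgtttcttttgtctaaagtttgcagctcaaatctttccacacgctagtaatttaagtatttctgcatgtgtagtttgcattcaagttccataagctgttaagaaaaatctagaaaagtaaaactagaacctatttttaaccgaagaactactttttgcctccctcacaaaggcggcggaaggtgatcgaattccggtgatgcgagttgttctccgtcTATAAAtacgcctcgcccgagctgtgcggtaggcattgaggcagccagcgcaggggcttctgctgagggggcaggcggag

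The windows differ in composition. Promoter 1 has a GC content of 73.7% with 37 CpG and holds GGGCGG 2 times on the plus strand and 3 times on the minus strand. Promoter 2 has a GC content of 46.0% with 14 CpG and holds no GGGCGG and TATAAA 1 time. Neither holds CCAAT. Among 35116 RefSeq promoter windows of this length, 45.0% hold GGGCGG, 11.5% TATAAA and 34.6% CCAAT, and the median window has a GC content of 58.7% and 14 CpG. None of the matches overlap each other, and a match is no more than a run of letters.

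MALAT1 was the one locus with the mark called in both conditions. Its shSETD2 peak at chr11:65266393-65274536 held 1035 tags, a fold enrichment of 4.94 and a false discovery rate (FDR) of 6.06%. Its shCtrl peak at chr11:65266714-65274562 held 1237 tags, a fold enrichment of 9.58 and an FDR of 0%. Fold enrichment (immunoprecipitated tags over local input background) and FDR are the values the authors' caller gave each peak and are read only within a list. The shSETD2 peak covered 86.7% of the MALAT1 span and the shCtrl peak 83.0%. Of windows of this length along chromosome 11, a shSETD2 peak touched 8.19% and a shCtrl peak 14.1%.

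Tag density over MALAT1 was lower in shSETD2 cells. In tags per kb per 1000000 filtered tags, the unit of every density given here, it was 1.90 in shSETD2 (1.78 to 2.01) and 3.29 in shCtrl (3.11 to 3.48). The log2 ratio of shSETD2 over shCtrl was -0.80 (-0.92 to -0.68), which is 1.74 times higher in shCtrl (1.60 to 1.89). The intervals of the densities did not overlap, but the comparison is of 2 merged libraries and holds no replicate spread.

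The same ratio over all 7543 pairs of peaks that overlapped each other by at least 50% had a median of -0.59 (quartiles -0.81 and -0.38), and 26.1% of pairs were lower than MALAT1. A density at least 1.5 times lower in shSETD2, as at MALAT1, was found in 50.1% of pairs, and one at least 1.5 times higher in 0.00%. Among the 1885 pairs in the same quartile of shCtrl fold enrichment, the median was -0.68 and 30.3% were lower than MALAT1. On chromosome 11 the median of 327 pairs was -0.63. The ratio at MALAT1 thus lay in the lower part of the range common to matched peaks, not outside it.

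**Figure D2:**
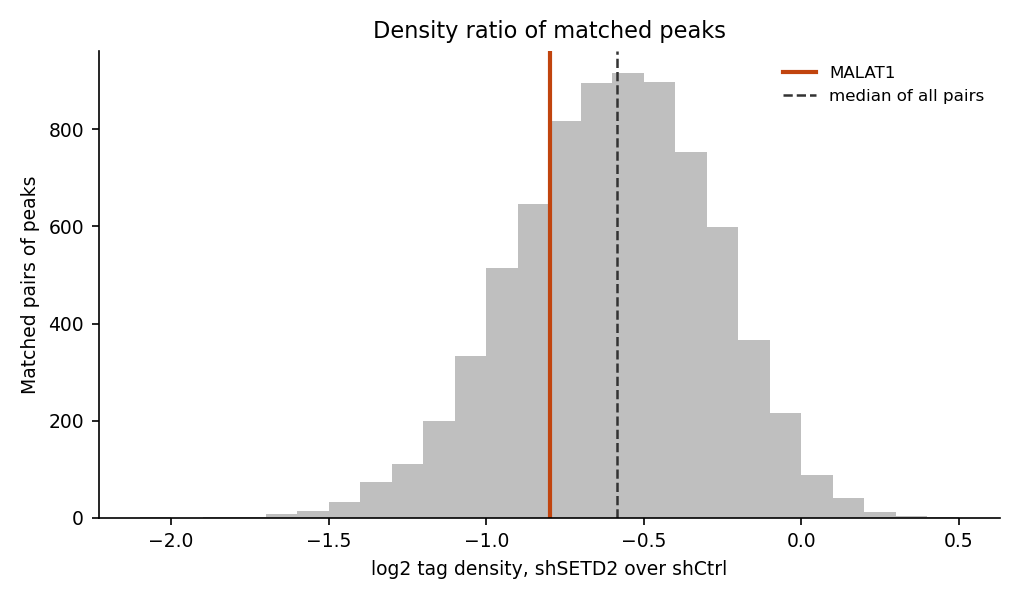
Log2 ratio of tag density, shSETD2 over shCtrl, for 7543 matched pairs of peaks (grey, number of pairs per bin of 0.1). The red line is MALAT1 at -0.80, and the dashed line is the median of all pairs at -0.59. MALAT1 lies left of the median, inside the bulk of the pairs.

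The outline of the MALAT1 domain was nearly the same in both lists. The shSETD2 peak covered 99.7% of the shCtrl peak, their 3′ edges were 26 bp apart and their summits 74 bp apart. The shSETD2 peak was the wider by 295 bp (8144 bp in shSETD2 against 7849 bp in shCtrl), as was the case in 18.9% of matched pairs. The summit lay 5.24 kb from the 5′ end of the span in shSETD2 and 5.32 kb in shCtrl. The peak ran 596 bp past the 3′ end in shSETD2 and 622 bp in shCtrl.

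Neither MALAT1 peak reached the first start site. The 5′ edge was 1160 bp into the span in shSETD2 and 1481 bp in shCtrl. RefSeq's MALAT1 gene is 71 bases longer than the hg19 span, and promoter 2 lies 1057 to 1356 bases from its start. The shSETD2 edge therefore lay inside promoter 2 and the shCtrl edge downstream of it, whichever end the 71 bases belong to. RefSeq also places TALAM1, an antisense RNA, and MASCRNA, a small RNA cut from the MALAT1 3′ end, over this gene. ChIP tags do not tell the strands apart, so the peak cannot be divided between MALAT1 and TALAM1.

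Within each list, MALAT1 ranked high. Its density exceeded that of 98.1% of shSETD2 peaks and 97.6% of shCtrl peaks. Its fold enrichment exceeded that of 81.7% of shSETD2 peaks and 87.0% of shCtrl peaks. The shSETD2 FDR of 6.06% stood far below the median of its list, 68.9%, yet above a limit of 5%, and its fold enrichment of 4.94 stood just under 5. The MALAT1 call in shSETD2 cells is absent under either limit.

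NEAT1 had no peak in shSETD2 cells and 3 in shCtrl cells, which covered 16.6 kb or 73.1% of its 22.7 kb span. Of windows of this length along chromosome 11, a shSETD2 peak touched 12.6% and a shCtrl peak 19.3%. The 5′ peak at chr11:65190168-65195537 held 372 tags, with a density of 1.45 (1.30 to 1.60) and a fold enrichment of 4.00. The middle peak at chr11:65199839-65207590 held 538 tags, with a density of 1.45 (1.33 to 1.58) and a fold enrichment of 4.56. The 3′ peak at chr11:65209401-65214922 held 276 tags, with a density of 1.04 (0.924 to 1.17) and a fold enrichment of 3.84.

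The mark in shCtrl cells thus stood along NEAT1 from its 5′ end to beyond its 3′ end, with gaps of 4.30 and 1.81 kb between peaks. The 5′ peak began 101 bp upstream of the span and had its summit 1.46 kb inside it. The 3′ peak ran 1.91 kb past the end, so 65.4% of it lay inside, the smallest share of any member. The density of the 5′ and middle peaks did not differ beyond counting error (ratio of middle over 5′ 1.00, 0.876 to 1.15). The 3′ peak was the less dense, with a ratio of 5′ over 3′ of 1.39 (1.18 to 1.63).

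NEAT1 stood higher in its list by density than by fold enrichment. The densities of its 5′ and middle peaks exceeded those of 76.2% and 76.3% of shCtrl peaks, and their fold enrichments exceeded 27.3% and 42.6%. For the 3′ peak the shares were 43.1% and 22.5%. Fold enrichment is taken against the local input background, a value not analysed here for single peaks, and its part in this gap was not tested. All 3 peaks had an FDR under 5% (3.63%, 0.60% and 4.34%), and none reached a fold enrichment of 5.

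Missing shSETD2 peaks were the usual outcome for shCtrl peaks with fold enrichments like those of NEAT1. With shCtrl peaks ranked by fold enrichment into 10 equal groups, the 5′ and 3′ peaks fell in the third, where 13.2% of the other peaks (12.1 to 14.4%) had a shSETD2 peak over them. The middle peak fell in the fifth, where the share was 21.2% (19.8 to 22.6%). Peaks 5 to 10 kb wide had somewhat higher shares within these groups, 27.0% (21.6 to 33.1%) in the third and 33.0% (29.2 to 37.0%) in the fifth. Of all shCtrl peaks 5 to 10 kb wide, at any fold enrichment, 60.0% (58.8 to 61.1%) had a shSETD2 peak over them. Shares for peaks of like density, by which NEAT1 stood higher, were not taken. For lack of a call, no NEAT1 level in shSETD2 cells and no ratio can be given. Among the 4833 shSETD2 peaks of 5 to 10 kb, the lowest density was 0.718 and the fifth percentile 0.863. These values describe called peaks and set no upper limit for NEAT1, where none was called.

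**Figure D3:**
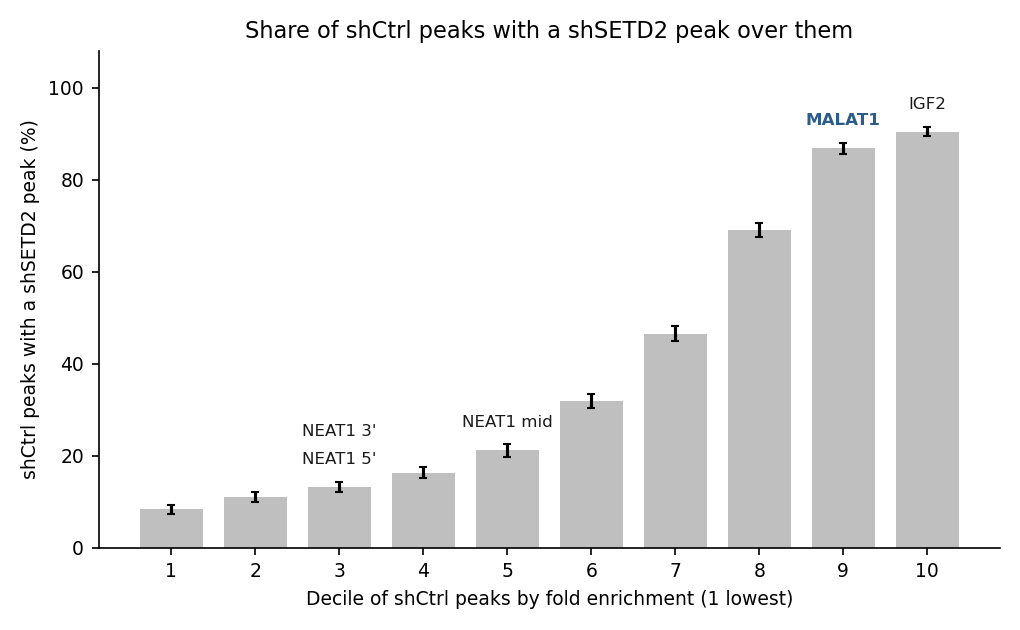
Share of shCtrl peaks with a shSETD2 peak of any FDR over them (bars, %, with exact 95% binomial intervals) in 10 equal groups by shCtrl fold enrichment, from the lowest (1) to the highest (10). Names mark the groups of the 5 shCtrl peaks over the loci. MALAT1 (bold) had a shSETD2 peak; IGF2, in the group with a share of 90.4%, and the 3 NEAT1 peaks, in groups with 13.2 and 21.2%, had none.

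Peaks around NEAT1 and MALAT1 with a shSETD2 peak tended to be more enriched and wider than those without, with some overlap in both. Within 100 kb of the pair, 12 shCtrl peaks touched neither gene, and 7 of them had shSETD2 peaks over them. Those 7 had fold enrichments of 5.37 or more, while the other 5 reached at most 5.95. None of the 4 with a fold enrichment under 5 had a shSETD2 peak, and all 3 NEAT1 peaks were under 5. By width, the 7 spanned 3.63 to 16.5 kb and the other 5 spanned 1.65 to 3.64 kb, and the NEAT1 peaks, at 5.37, 7.75 and 5.52 kb, fell among the widths of the 7. Over the 7, the log2 density ratio of shSETD2 over shCtrl ran from -1.01 to -0.43. In 3 of them it pools 2 or 3 shSETD2 peaks over 1 shCtrl peak, so these ratios are not the quantity given for MALAT1 and the matched pairs. The shSETD2 peaks covered 16.4 to 85.0% of these shCtrl peaks, against 99.7% at MALAT1. In the 52.2 kb between NEAT1 and MALAT1, no shSETD2 peak lay, and no shCtrl peak but the 3′ end of the last NEAT1 peak.

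IGF2 had no peak in shSETD2 cells and 1 in shCtrl cells, at chr11:2151959-2159069. That peak held 684 tags, with a density of 2.01 (1.86 to 2.17), a fold enrichment of 11.12 and an FDR of 0%. It covered 34.7% of the 20.5 kb span. Of windows of this length along chromosome 11, a shSETD2 peak touched 11.8% and a shCtrl peak 18.6%. The gene is on the minus strand. The peak lay 11.8 to 18.9 kb downstream of the span's 5′ end, in its 3′ part, with the summit at 15.2 kb. The peak stopped 1.61 kb short of the 3′ end. No peak of either list lay in the 11.8 kb of the span before it. RefSeq lists 5 IGF2 transcripts, and their start sites were not placed on hg19. Where the peak lies within a form that starts inside the span was therefore not determined. RefSeq places the readthrough gene INS-IGF2, the antisense gene IGF2-AS and MIR483 over IGF2, and the peak cannot be divided among them.

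Against the full shSETD2 list, the missing call at IGF2 was uncommon for a peak so enriched. That list had a median FDR of 68.9%, and 1244 of its 23488 peaks had an FDR of 5% or less. The shares given here count shSETD2 peaks of any FDR and were not taken at that limit. The IGF2 peak was in the highest of the 10 groups by fold enrichment, where 90.4% of the other 3537 peaks (89.4 to 91.4%) had a shSETD2 peak over them. Among the 666 others of that group that were also 5 to 10 kb wide, 651 had one, or 97.7% (96.3 to 98.7%), and 15 on 10 chromosomes had none. In density IGF2 stood below most of those with one: it was lower than 458 of those 651 peaks, whose median was 2.33. It was lower than 5 of the 15 without a shSETD2 peak, whose median was 1.71. In the whole highest group, the 338 others without a shSETD2 peak had a median width of 29.1 kb, against 15.7 kb for the 3199 with one. The reason for this was not tested. As at NEAT1, no shSETD2 level and no ratio can be given for IGF2.

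H19 had no peak in either list over its span at chr11:2016406-2019065. The span is 2.66 kb, and of windows of that length along chromosome 11 a shSETD2 peak touched 5.40% and a shCtrl peak 10.6%. A window without a peak is therefore the common case at this length, but the windows were not limited to genes. In shSETD2 cells the nearest peak lay just outside, 701 bp beyond the 5′ end, at chr11:2019766-2021658, with 97 tags. Its density was 0.764 (0.620 to 0.932), its fold enrichment 3.70 and its FDR 79.1%. Its density exceeded that of 16.4% of shSETD2 peaks. In shCtrl cells no peak lay within 37.8 kb, and the whole 131 kb between H19 and IGF2 held none. RefSeq's H19 gene on GRCh38.p14 is 6091 bases long against 2660 in the span used here, and whether the shSETD2 peak falls inside the longer form was not determined.

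The nearest peak on the other side of H19 was called in both lists, though weakly in shSETD2. It lay beyond the 3′ end, 39.3 kb away in shSETD2 and 37.8 kb away in shCtrl. Its density was 0.983 in shSETD2 (0.869 to 1.11) and 1.86 in shCtrl (1.72 to 2.02), a log2 ratio of -0.92 (-1.14 to -0.71). The shSETD2 peak had a fold enrichment of 3.12 and an FDR of 77.4%, and it covered 61.7% of the shCtrl peak. The shCtrl peak had a fold enrichment of 8.30 and an FDR of 0%. It was the one shCtrl peak other than that of IGF2 within 100 kb of H19 and IGF2.

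Set side by side in shCtrl cells, the noncoding genes did not share a level. By density MALAT1 came first, 1.64 times IGF2 (1.49 to 1.80), and IGF2 came next, 1.39 times the middle NEAT1 peak (1.24 to 1.55). By fold enrichment IGF2 came before MALAT1, with 11.12 and 9.58, and NEAT1 again last. So MALAT1 and IGF2 change places with the measure, while NEAT1 stood below both and H19 had no call by either. The median shSETD2 peak had a density of 0.907 and a fold enrichment of 3.71, and the median shCtrl peak 1.101 and 4.88.

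**Figure D4:**
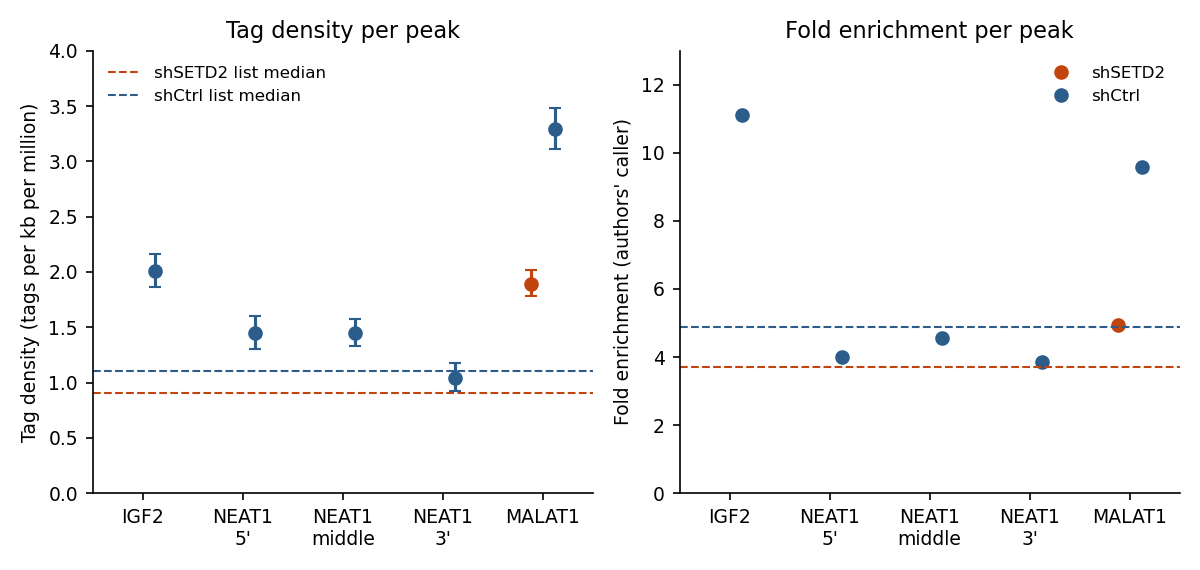
Tag density (left, tags per kb per 1000000 filtered tags; bars are 95% Poisson intervals) and the authors' fold enrichment (right) of each peak over IGF2, NEAT1 and MALAT1 in shSETD2 (red) and shCtrl (blue). Dashed lines are list medians. The MALAT1 peak is the one shSETD2 point, at a density of 1.90 against 3.29 in shCtrl; IGF2 has the highest fold enrichment, 11.12, and MALAT1 the highest density.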

How the data were processed

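H3K36me3 ChIP-seq peak lists of HepG2 cells with a SETD2 or control shRNA were used. The submitters' processing notes name Bowtie 1.1.2, FastQC 0.11.5 and hg19. The authors ran MACS 1.4.2, per the file headers, on merged replicates against merged input (p-value limit 1e-05, 1 duplicate per position, bandwidth 300 bp, fragment 294 bp). The deposited tag counts are whole tags per peak, not normalized. The deposited score is minus 10 times the log10 of the caller's p-value, the deposited fold enrichment is a ratio over local input background, and the deposited FDR is in percent. The authors' shorter lists held exactly the peaks with an FDR of 5% or less.

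Peaks overlapping a span by 1 bp or more were taken. Density is tags per kb and per 1000000 tags left after duplicate removal, and its intervals are Poisson; ratios carry exact conditional binomial intervals and shares exact Clopper-Pearson intervals. Windows of each span's length tiled chromosome 11 to its last peak. The genes named were the 4 members and their nearest peaks; other genes on the planned list, and genes most alike in pattern, were left out for want of a gene annotation on hg19. Strands of IGF2 and NEAT1 are textbook knowledge. The members and lists were chosen with earlier results of these data known. Steps were tested on simulated data. Python 3.11.15, pandas 2.3.3, NumPy 2.4.6, SciPy 1.17.1 and matplotlib 3.10.9 were used.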

Additional observations from a re-analysis of the deposited data

How the results depend on the processing

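The number of loci with a shCtrl peak stayed at 3 of 4 under all settings tried but a fold enrichment of 5 or more, which left 2 because no NEAT1 peak reached it. The number with a shSETD2 peak, 1 of 4, was 0 under an FDR of 5% or less, under the shorter deposited lists, which hold the same peaks, and under a fold enrichment of 5 or more, all by the loss of MALAT1. It was 2 with loci widened by 5 kb, by the peak beyond the 5′ end of H19. A score of 100 or more, 50% of the peak inside the locus, and merging within 3000 bp left both numbers as they were. The MALAT1 log2 density ratio, -0.80, was -0.97 with the density outside peaks (0.337 in shSETD2 and 0.235 in shCtrl) taken off, and -0.78 with all tags as depth. It had no value under the limits that removed the shSETD2 peak, and no ratio could be had for H19, IGF2 or NEAT1 under any setting tried. No paired analysis was possible because the replicates of each group were merged before peak calling, so no replicate could be left out either. The lists give no level where no peak was called, so a missing shSETD2 peak shows only that none was listed there. Why a call was missing was not tested.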

Other observations

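The missing shSETD2 call at IGF2 sat in a wider stretch without one. No shSETD2 peak lay on chromosome 11 from 2021659 to 2693776 in hg19, a length of 672 kb. This length was not compared with other gaps between shSETD2 peaks. The shSETD2 peaks that bound it were weak, with fold enrichments of 3.70 and 2.55 and FDRs of 79.1% and 91.3%. In shCtrl cells that stretch held 2 peaks: that of IGF2 and a smaller one from 2422946 to 2425465 with 146 tags, a density of 1.21 and a fold enrichment of 6.90. On the H19 side, shCtrl cells had no peak over 173 kb, from 1978584 to 2151958, a stretch in which the shSETD2 list had 1 peak, the one beyond the 5′ end of H19.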
